A study of Oryza sativa with 4 samples.

Results

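Class III peroxidases are secreted, heme-containing plant enzymes. They are described here in root-tip protoplasts of the rice cultivars 93-11 and Nipponbare through 60 LOC_Os identifiers given as members of the family. Of these 60 identifiers, 49 appear in at least 1 of the 2 deposited tables, which together hold 20567 genes. The 93-11 table lists 39 of the members among its 13486 genes and the Nipponbare table lists 40 among its 15657. Both tables list 30 members, 9 are in the 93-11 table only, 10 are in the Nipponbare table only and 11 are in neither. These listing counts describe how the members were found and are not a result. The tables give no gene names, and 0 members matched RefSeq's genes of assembly ASM3414082v1, so that each gene is called by its identifier.

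The first group is 93-11, an indica rice (2 libraries), and the second is Nipponbare, a japonica rice (2 libraries). Both are inbred cultivars with no transgene or treatment named in the labels, taken from seedlings kept 3 days in nutrient solution. Tips of 5 mm from 800 crown roots were digested with wall-degrading enzymes for 30 minutes and a further 2.5 hours, so every library stands for cells freed of their walls and none for an intact root. Bulk poly(A) RNA of these cells was sequenced, with all 4 libraries on 1 lane per the run names in the labels. The labels do not state whether both libraries of a cultivar go back to separate preparations. The p-values therefore rest on a spread that may be technical, and cultivar and preparation cannot be told apart.

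As background, class III peroxidases use hydrogen peroxide to oxidise phenolic compounds in the cell wall. They couple monolignols into lignin and cross-link wall polymers, and some reactions release reactive oxygen species that loosen the wall. In the root of Arabidopsis, members of the family act in lignin deposition at the Casparian strip and in the balance of reactive oxygen species between dividing and elongating cells. Plant genomes carry many such genes, often as runs of neighbouring copies.

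Levels are RPM, reads scaled to a common library total, with decimal points that had been lost in the deposited tables restored from the rule that every value is a whole number of reads. The values implied library totals between 21504426 and 21504715 reads, so that 1 read was worth 0.0465 RPM and 3 reads, the limit that a value of 0 allows, 0.140 RPM. RPM is not corrected for gene length, and a level is therefore compared between libraries and not between genes. The listed genes held 42.3% and 43.5% of the reads in the 93-11 libraries and 55.6% and 55.7% in the Nipponbare libraries. If both read numbers of a gene in a cultivar end in 0 and both true values are at least 10 RPM, its restored values are 10 times too low. This cannot be seen from the digits for the 36 members of the 93-11 table and the 29 of the Nipponbare table that lost the decimal point in both libraries. The sources used here do not say how reads from similar copies were assigned, and values of neighbouring family members are uncertain in that respect.

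Of the 29 members that could be tested between the cultivars, 21 were higher in 93-11 and 6 in Nipponbare, while 2 did not pass the test. The test was limma on log2(RPM + 1) over all 7269 genes that both tables list with a mean of at least 1 RPM, with Benjamini-Hochberg adjusted p-values called at 0.05. Over all genes tested 96.9% were called, 59.0% as higher in 93-11 and 37.9% as higher in Nipponbare. Among the members the shares were 72.4% higher in 93-11 and 20.7% higher in Nipponbare. With a log2 difference of at least 1 as well, 18 members were called higher in 93-11 and 4 in Nipponbare, where the shares of all genes tested were 54.8% and 30.6%. The median difference of the members was 1.43 on the log2 scale (93-11 minus Nipponbare), against 1.44 over all genes tested, and 14 members lay above that median and 15 below it. The scaling moves these medians, and not equally. After median-ratio scaling the median was 0.92 for the members and 1.03 for all genes. After quantile normalization it was 1.36 for the members and 0.59 for all genes, and 18 of the 29 members lay above the median of all genes. Under these scalings 20 and 19 members were called higher in 93-11 and 7 in Nipponbare under each. Of all 7269 genes tested, 4127 and 3892 were then called higher in 93-11 and 2960 and 3035 in Nipponbare.

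On RPM without further scaling, fewer members than genes overall had low differences. The percentile 25 of the log2 differences was 0.35 for the members and -1.45 for all genes tested. Differences of -1 or lower were found in 13.8% of the members and 30.6% of all genes tested. Differences under 1 in size were found in 24.1% of the members, 7 genes, and in 14.5% of all genes tested. These are descriptions of a list chosen with earlier results known and carry no test.

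**Figure D1:**
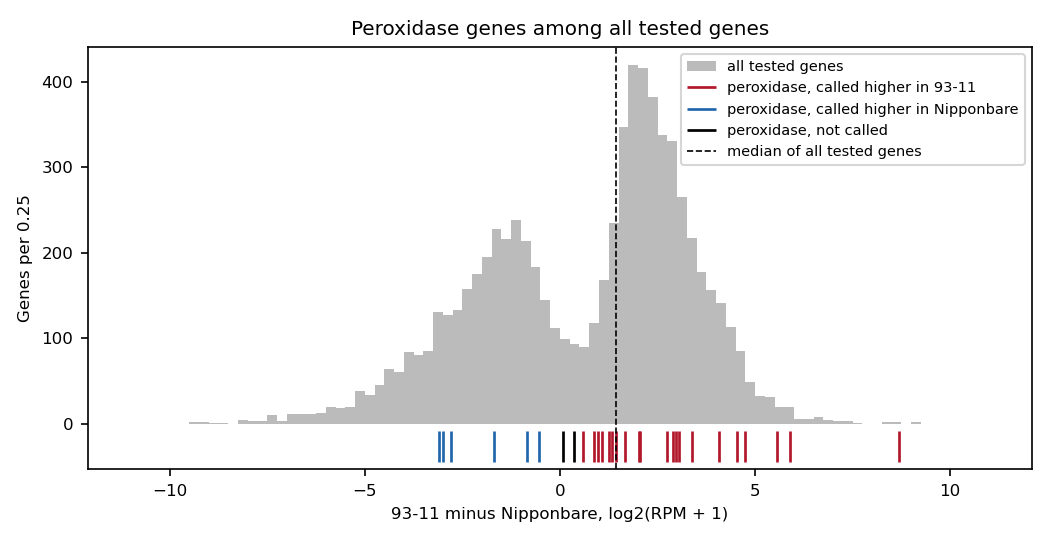
Differences between the cultivars on the log2(RPM + 1) scale (93-11 minus Nipponbare, x axis) for all 7269 tested genes, as a histogram of genes per bin on the y axis, with the 29 tested peroxidase members as ticks beneath it, coloured by their call. All genes form a peak on each side of 0; the members run from -3.10 to 8.69.

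With the reads of the 30 members in both tables added up, these genes took 3159 and 3437 RPM in the 93-11 libraries, against 1181 and 1181 RPM in the Nipponbare libraries. The 3 members of the run LOC_Os04g59 accounted for much of this. Without them the sums were 1582 and 1669 RPM in 93-11 and 1166 and 1167 RPM in Nipponbare. Over all listed members, including those in 1 table only, 39 genes took 0.568% and 0.602% of the reads of the 93-11 libraries and 40 genes took 0.200% and 0.201% of the reads of the Nipponbare libraries. The sums over different gene sets are given side by side and were not compared.

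Markers of root cell types were looked up beside the members. A list of 14 identifiers, recalled from published rice work and without annotation in the tables, stood for meristem, root hair, endodermis and exodermis, stele and the root in general. All 8 tested markers were higher in 93-11 under each of the 3 scalings. Apart from LOC_Os02g44310, the tested markers were at 1.02 RPM or less in both Nipponbare libraries. These markers reached the filter on the mean of all 4 libraries through 93-11, so nothing is read from their shared direction. On RPM 59.0% of all 7269 genes tested were called higher in 93-11. After median-ratio scaling 4127 of them were, and after quantile normalization 3892. The cell type markers without the general root gene were summed over the genes each table lists. The sums were 298 and 304 RPM in the 93-11 libraries and 15.8 and 15.3 RPM in the Nipponbare libraries. Most of the Nipponbare sum came from LOC_Os02g51110 (endodermis and exodermis), LOC_Os01g54620 and LOC_Os09g25490 (both stele), listed for Nipponbare only. LOC_Os04g58760 (endodermis and exodermis) was listed for 93-11 only. Markers in 1 table could not be tested. These sums cover different genes and were not compared. Of the 10 markers in both tables, 5 had 0 reads in both Nipponbare libraries, among them LOC_Os06g51110 and LOC_Os04g47580, both listed as meristem markers. Over all genes tested the share at 0 in both Nipponbare libraries was 15.1%. LOC_Os01g63510 (0.233 and 0.791 RPM in 93-11) and LOC_Os07g39820 (1.63 and 1.67 RPM in 93-11), among the 5, did not reach the filter. Genes at 0 in Nipponbare can reach it only through 93-11, so nothing is read from this count. The general root marker LOC_Os02g44310 was abundant in all 4 libraries, at 7310 and 7857 RPM in 93-11 and 3366 and 3334 RPM in Nipponbare. Of 4 green-tissue identifiers 1 was listed, for Nipponbare, at 0.698 and 0.837 RPM. In bulk RNA, fewer cells of a type and less RNA per cell cannot be told apart, and the part of cell type composition in the results on peroxidases was not tested.

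**Figure D2:**
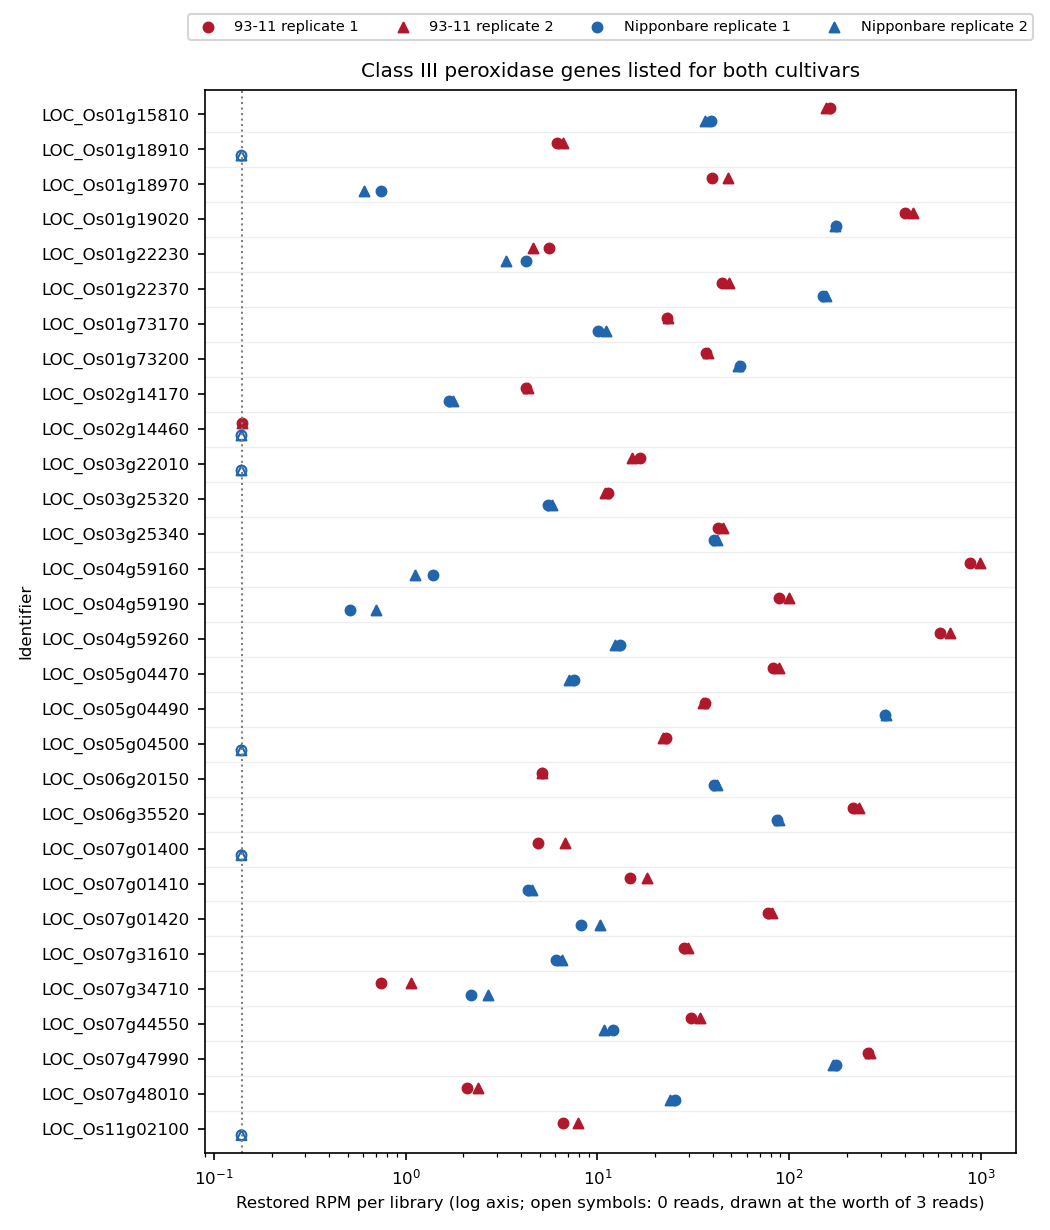
Restored RPM (x axis, log) of each of the 30 peroxidase members listed for both cultivars, with 1 symbol per library; open symbols mark 0 reads and are drawn at 0.140 RPM, the worth of 3 reads. The libraries of a cultivar lie close together, and LOC_Os04g59160 and LOC_Os04g59190 show the widest gaps among members with reads in both cultivars.

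The members were grouped by neighbouring identifiers, which on rice chromosomes number the genes along the sequence. Joining members whose identifiers differ by at most 300 gave 13 series with 49 members and left 11 single members. In 8 series 2 or more members were tested. In 3 of these all tested members were called higher in 93-11, and in 3 others members were called in both directions. In the remaining 2 series 1 member was called and 1 was not. Over all genes tested 59.0% were called higher in 93-11 and 37.9% in Nipponbare. With 2 or 3 tested members per series, whether these patterns differ from those shares was not tested.

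The LOC_Os04g59 series on chromosome 4 (LOC_Os04g59150 to LOC_Os04g59260, 6 members) had all 3 of its tested members higher in 93-11. On the log2(RPM + 1) scale their differences were the largest of the family, under each of the 3 scalings. With a pseudocount of 0.1 RPM this held for LOC_Os04g59160 only: LOC_Os05g04500 (7.81) and LOC_Os03g22010 (7.32), with 0 reads in Nipponbare, then passed LOC_Os04g59190 (7.07), and LOC_Os04g59260 stood at 5.66. LOC_Os04g59160 stood at 879 and 982 RPM in the 93-11 libraries and at 1.40 and 1.12 RPM in the Nipponbare libraries. It averaged 930.3 ± 73.1 RPM in 93-11 and 1.26 ± 0.197 RPM in Nipponbare (SD, n = 2 each), a 741-fold difference (limma log2 difference 8.69, SE 0.0909, adjusted p = 7.28e-07). On this scale 2 of the 7269 tested genes had a larger difference in this direction. LOC_Os04g59190 was at 87.9 and 100.3 RPM in 93-11 and at 0.512 and 0.698 RPM in Nipponbare, 156-fold higher in 93-11 (log2 difference 5.89, SE 0.105, limma adjusted p = 1.25e-06). Of the members of this series listed for Nipponbare, LOC_Os04g59260 had the most reads there. It was at 610.0 and 686 RPM in 93-11 against 13.1 and 12.4 RPM in Nipponbare. Its fold of 50.9 was the smallest of the 3 (log2 difference 5.56, SE 0.0720, limma adjusted p = 8.25e-07). In all 3 genes both 93-11 libraries lay above both Nipponbare libraries. No tested member had overlapping libraries: 23 were higher in 93-11 (59.6% of all genes tested) and 6 in Nipponbare (38.9% of all genes tested), and 98.5% of all genes had no overlap. The log2 differences of the 3 genes stayed between 5.04 and 8.68 under the other scalings.

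The other members of the series could not be compared. LOC_Os04g59150, listed for 93-11 only, was at 2284 and 2346 RPM there and took 40.2% and 38.9% of the reads of all listed members in these libraries. LOC_Os04g59210 was listed for Nipponbare only, with 0 reads in both libraries, and LOC_Os04g59200 was in neither table. In all 3 tested genes replicate 2 was the higher 93-11 library, by far less than the difference between the cultivars.

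The LOC_Os05g04 series on chromosome 5 (LOC_Os05g04380 to LOC_Os05g04500, 5 members) split by member, with 2 of 3 tested genes higher in 93-11 and 1 higher in Nipponbare. LOC_Os05g04500 had 22.7 and 21.9 RPM in 93-11 and 0 reads in both Nipponbare libraries, at least 160.2-fold higher against the floor of 3 reads per library (log2 difference 4.54, SE 0.0749, limma adjusted p = 1.09e-06). LOC_Os05g04470 was at 82.7 and 88.8 RPM in 93-11 and 7.53 and 7.07 RPM in Nipponbare, 11.7-fold higher in 93-11 (log2 difference 3.39, SE 0.0660, limma adjusted p = 1.44e-06). LOC_Os05g04490, which lies between these 2 by its number, went the other way, with 36.6 and 35.4 RPM in 93-11 and 315 and 318 RPM in Nipponbare. This was 8.78-fold higher in Nipponbare (log2 difference -3.10, SE 0.0388, limma adjusted p = 7.83e-07). Its difference was the lowest of the tested members on this scale and after median-ratio scaling. With a pseudocount of 0.1 RPM LOC_Os07g48010 was lower (-3.41 against -3.13), and after quantile normalization LOC_Os07g48010 (-3.79) and LOC_Os06g20150 (-3.36) were lower than LOC_Os05g04490 (-2.90). The range of differences within the series, 7.65 on the log2 scale, was the widest of any series. LOC_Os05g04450 (70.3 and 72.2 RPM) and LOC_Os05g04380 (49.9 and 51.7 RPM) were listed for 93-11 only.

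On chromosome 7, the series LOC_Os07g47990 to LOC_Os07g48050 (5 members) also held both directions. LOC_Os07g48010 was at 2.09 and 2.37 RPM in 93-11 and 25.4 and 23.9 RPM in Nipponbare, 11.0-fold higher in Nipponbare (log2 difference -2.99, SE 0.0847, limma adjusted p = 3.16e-06). LOC_Os07g47990 was at 258 and 263 RPM in 93-11 and at 175 and 169 RPM in Nipponbare, 1.51-fold higher in 93-11 (limma adjusted p = 4.91e-05). Its log2 difference was 0.59, and it was 0.054 after median-ratio scaling, where the call was lost (limma adjusted p = 0.273). Read numbers of LOC_Os07g48020 (1.12 and 0.651 RPM) and LOC_Os07g48030 (1.16 and 1.35 RPM), listed for Nipponbare only, were low, and LOC_Os07g48050 was in neither table.

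The 2 remaining series on chromosome 7 leaned to 93-11. In the series LOC_Os07g01370 to LOC_Os07g01420 all 3 tested members were higher there. LOC_Os07g01420 was at 77.7 and 81.3 RPM in 93-11 against 8.23 and 10.3 RPM in Nipponbare, 8.59-fold higher. LOC_Os07g01410 was at 14.8 and 18.1 RPM in 93-11 against 4.32 and 4.56 RPM in Nipponbare, 3.71-fold higher. LOC_Os07g01400, with 4.88 and 6.74 RPM in 93-11, had 0 reads in both Nipponbare libraries and was at least 41.7-fold higher. Among members with a mean of at least 1 RPM in 93-11, it also showed the widest gap between the libraries of 93-11, at 38.1%. LOC_Os07g44550 was the tested member of the series LOC_Os07g44550 to LOC_Os07g44600, with 30.8 and 34.1 RPM in 93-11 and 12.04 and 10.8 RPM in Nipponbare, 2.84-fold higher. Of its series, LOC_Os07g44590 (12.6 and 13.8 RPM) and LOC_Os07g44600 (0 reads) were listed for 93-11 only.

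**Figure D3:**
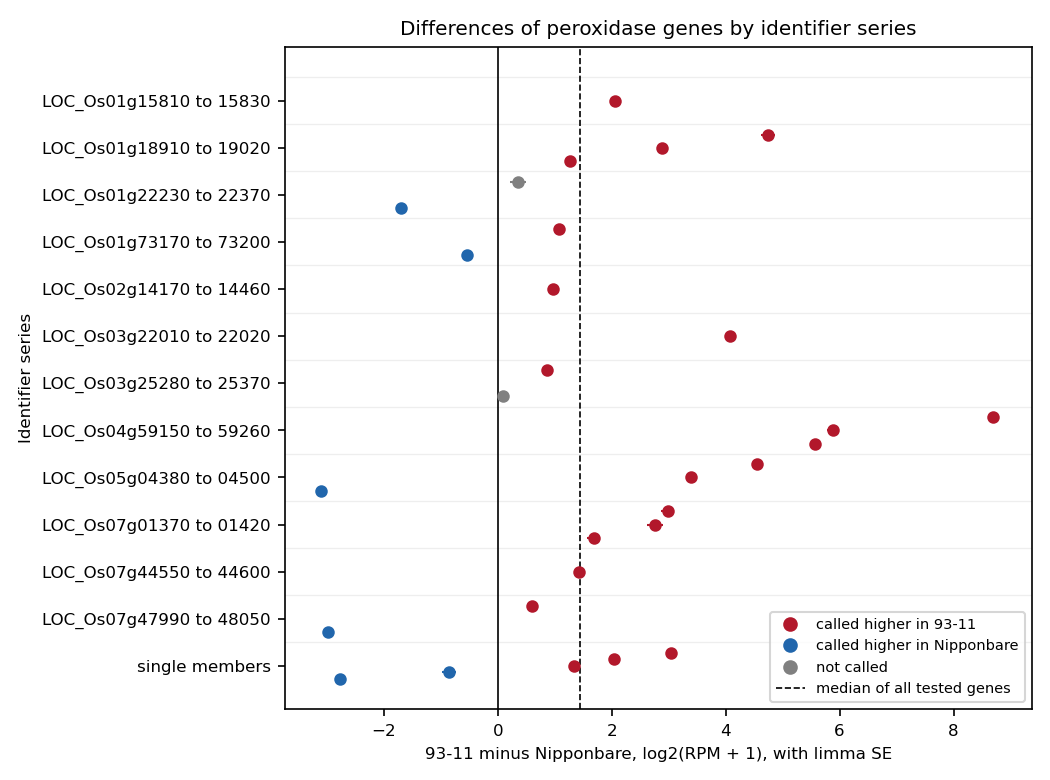
Log2 difference (93-11 minus Nipponbare on log2(RPM + 1), x axis) of the 29 tested members with limma's standard error, by identifier series down the page and single members last. The 3 genes of LOC_Os04g59 lie from 5.56 to 8.69, and the series LOC_Os05g04, LOC_Os07g47990 to LOC_Os07g48050 and LOC_Os01g73 have members called in both directions; the series LOC_Os01g22230 to LOC_Os01g22370 also spans 0, with its upper member not called.

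Chromosome 1 carries 4 series with 11 members. In the series LOC_Os01g18910 to LOC_Os01g19020 all 3 tested members were higher in 93-11, by very different amounts. LOC_Os01g18970 had 39.7 and 48.0 RPM in 93-11 and 0.744 and 0.605 RPM in Nipponbare, 65.0-fold higher (log2 difference 4.74, SE 0.120, limma adjusted p = 2.34e-06). LOC_Os01g18910 had 6.14 and 6.65 RPM in 93-11 and 0 reads in both Nipponbare libraries, at least 45.8-fold higher. LOC_Os01g19020, at 402 and 443 RPM in 93-11 and 175 and 174 RPM in Nipponbare, was 2.42-fold higher. On RPM its log2 difference, 1.27, was smaller than the all-gene median, and after quantile normalization, at 2.00, it was larger. LOC_Os01g15810 was at 163 and 156 RPM in 93-11 and 39.0 and 36.3 RPM in Nipponbare, 4.24-fold higher. It was the only tested gene of its pair, as LOC_Os01g15830 was in neither table.

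The other series on this chromosome held genes that were higher in Nipponbare. LOC_Os01g22370 was at 44.5 and 48.3 RPM in 93-11 and at 150.2 and 155 RPM in Nipponbare, 3.29-fold higher in Nipponbare (log2 difference -1.70, SE 0.0557, limma adjusted p = 4.83e-06). LOC_Os01g22230 of the same series did not pass, with 5.58 and 4.60 RPM in 93-11 and 4.23 and 3.35 RPM in Nipponbare (limma adjusted p = 0.0604), and its log2 difference of 0.35 was -0.091 after median-ratio scaling and, called higher in Nipponbare, -0.68 after quantile normalization (limma adjusted p = 0.00666). LOC_Os01g22352 was listed for Nipponbare only, at 27.4 and 29.9 RPM. In the pair LOC_Os01g73170 and LOC_Os01g73200 the directions were opposite but both differences were modest. LOC_Os01g73170 had 23.1 and 23.4 RPM in 93-11 and 10.0 and 11.0 RPM in Nipponbare, 2.21-fold higher in 93-11. LOC_Os01g73200 had 37.0 and 37.9 RPM in 93-11 and 55.4 and 54.1 RPM in Nipponbare, 1.46-fold higher in Nipponbare (log2 difference -0.54, SE 0.0460, limma adjusted p = 0.000181).

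The LOC_Os03g25 series (LOC_Os03g25280 to LOC_Os03g25370) is the longest, with 7 members, of which 2 were tested and neither differed strongly. LOC_Os03g25340 was at 42.8 and 45.2 RPM in 93-11 and 40.4 and 42.3 RPM in Nipponbare and did not pass (limma adjusted p = 0.183). Its log2 difference of 0.087 became -0.44 after median-ratio scaling and was then called higher in Nipponbare (limma adjusted p = 0.000433). LOC_Os03g25320 had 11.3 and 10.9 RPM in 93-11 and 5.53 and 5.77 RPM in Nipponbare, 1.97-fold higher in 93-11, but after quantile normalization its log2 difference was -0.044 and not called (limma adjusted p = 0.563). Of the listed members of this series LOC_Os03g25330 had the most reads. It was listed for Nipponbare only, at 696 and 707 RPM, and took 34.9% and 35.2% of the reads of all listed members there. LOC_Os03g25370 (45.9 and 43.4 RPM) and LOC_Os03g25360 (17.3 RPM in both libraries) were listed for Nipponbare only as well, and 2 members were in neither table.

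The other series on chromosome 3 and the one on chromosome 2 had at most 1 tested member. LOC_Os03g22010 had 16.7 and 15.1 RPM in 93-11 and 0 reads in both Nipponbare libraries, at least 114-fold higher (log2 difference 4.08, SE 0.0850, limma adjusted p = 1.58e-06). Its neighbour LOC_Os03g22020, listed for Nipponbare only, had 0 reads. LOC_Os03g13210 (14.8 and 14.7 RPM) and LOC_Os03g13200 (5.53 and 5.02 RPM) were listed for 93-11 only. LOC_Os02g14170 was at 4.23 and 4.37 RPM in 93-11 and 1.67 and 1.77 RPM in Nipponbare, 2.50-fold higher in 93-11, with a log2 difference of 0.96 that became -0.12 after quantile normalization and was not called (limma adjusted p = 0.153). LOC_Os02g14460 did not reach the filter, at 0.140 RPM in both 93-11 libraries and 0 reads in both Nipponbare libraries. Both are at or under the floor of 3 reads, so no fold is given, and LOC_Os02g14430 and LOC_Os02g14440 were in neither table.

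Of the 11 single members 5 were tested, 3 of them higher in 93-11 and 2 in Nipponbare. LOC_Os11g02100 had 6.65 and 7.91 RPM in 93-11 and 0 reads in both Nipponbare libraries, at least 52.2-fold higher (log2 difference 3.05, SE 0.0966, limma adjusted p = 4.35e-06). LOC_Os07g31610 was at 28.1 and 29.7 RPM in 93-11 and 6.09 and 6.51 RPM in Nipponbare, 4.59-fold higher. LOC_Os06g35520 was at 216 and 230.0 RPM in 93-11 and 86.8 and 88.2 RPM in Nipponbare, 2.55-fold higher. The other 2 went the opposite way. LOC_Os06g20150 was at 5.12 and 5.16 RPM in 93-11 and 40.5 and 41.9 RPM in Nipponbare, 8.02-fold higher in Nipponbare (log2 difference -2.78, SE 0.0603, limma adjusted p = 1.71e-06). LOC_Os07g34710 was at 0.744 and 1.07 RPM in 93-11 and 2.19 and 2.70 RPM in Nipponbare, 2.69-fold higher in Nipponbare (log2 difference -0.85, SE 0.124, limma adjusted p = 0.00162), and was not called when 93-11 replicate 1 was left out (limma adjusted p = 0.0574). Single members in 1 table were LOC_Os06g46799 (59.5 and 63.1 RPM) and LOC_Os10g02040 (24.0 and 20.6 RPM) for 93-11, and LOC_Os05g06970 (23.3 and 27.1 RPM) and LOC_Os08g02110 (1.49 and 1.40 RPM) for Nipponbare.

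**Figure D4:**
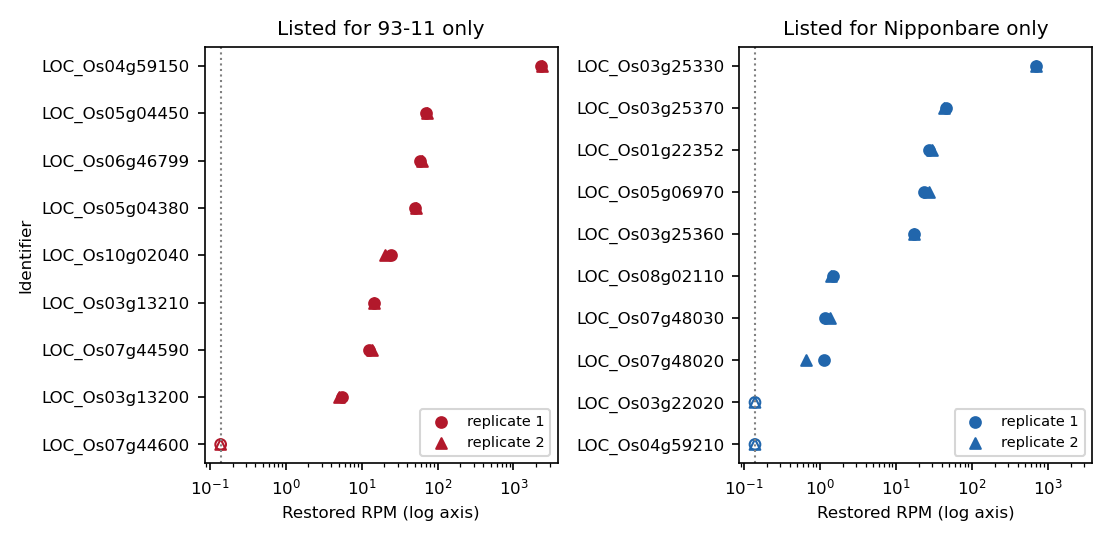
Restored RPM (x axis, log) of the 9 members listed for 93-11 only and the 10 listed for Nipponbare only, with 1 symbol per library and open symbols for 0 reads, drawn at 0.140 RPM. LOC_Os04g59150 reaches 2346 RPM in 93-11 and LOC_Os03g25330 reaches 707 RPM in Nipponbare; these genes have no counterpart to compare.

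No tested member was at 0 in both 93-11 libraries, and 5 (LOC_Os05g04500, LOC_Os03g22010, LOC_Os11g02100, LOC_Os01g18910 and LOC_Os07g01400) had 0 reads in both Nipponbare libraries, 17.2% of the tested members. Such genes passed the filter only through 93-11, and the tables list zeros unequally, with 665 and 654 values of 0 in the 93-11 libraries and 3775 and 3788 in the Nipponbare libraries, so nothing is read from this count. Over all genes tested the shares were 0.660% with 0 reads in both 93-11 libraries and 15.1% with 0 reads in both Nipponbare libraries.

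Of the folds that are ratios, 5 lay between 8 and 12.5, near the 10-fold error that a misplaced decimal point would cause. They are those of LOC_Os05g04470 and LOC_Os07g01420, higher in 93-11, and of LOC_Os05g04490, LOC_Os06g20150 and LOC_Os07g48010, higher in Nipponbare. Whether a misplaced decimal point contributes to any of them was not tested. In the 93-11 table the power of 10 of 7 members, and in the Nipponbare table that of 1 member, was set by the other library of the cultivar. Among them are LOC_Os01g15810, LOC_Os03g22010, LOC_Os05g04470, LOC_Os07g01410 and LOC_Os07g01420, whose calls were lost when each library was restored on its own. The log2 difference was then larger for LOC_Os01g15810 (3.56 against 2.06) and smaller for LOC_Os03g22010 (2.71 against 4.08), LOC_Os05g04470 (1.79 against 3.39), LOC_Os07g01420 (1.40 against 2.98) and LOC_Os07g01410 (0.30 against 1.68).

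The 2 libraries of a cultivar were close for the members. Among members of at least 1 RPM, the median difference between the libraries was 7.01% in 93-11 (36 members) and 6.02% in Nipponbare (29 members), against 8.64% and 6.77% over all genes of that level. In 93-11, 27 of the 36 members were higher in replicate 2, with a median log2 ratio of 0.071 against 0.017 for all genes of that level. The closeness is partly built in, since the decimal points were set by agreement between the libraries.

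**Figure D5:**
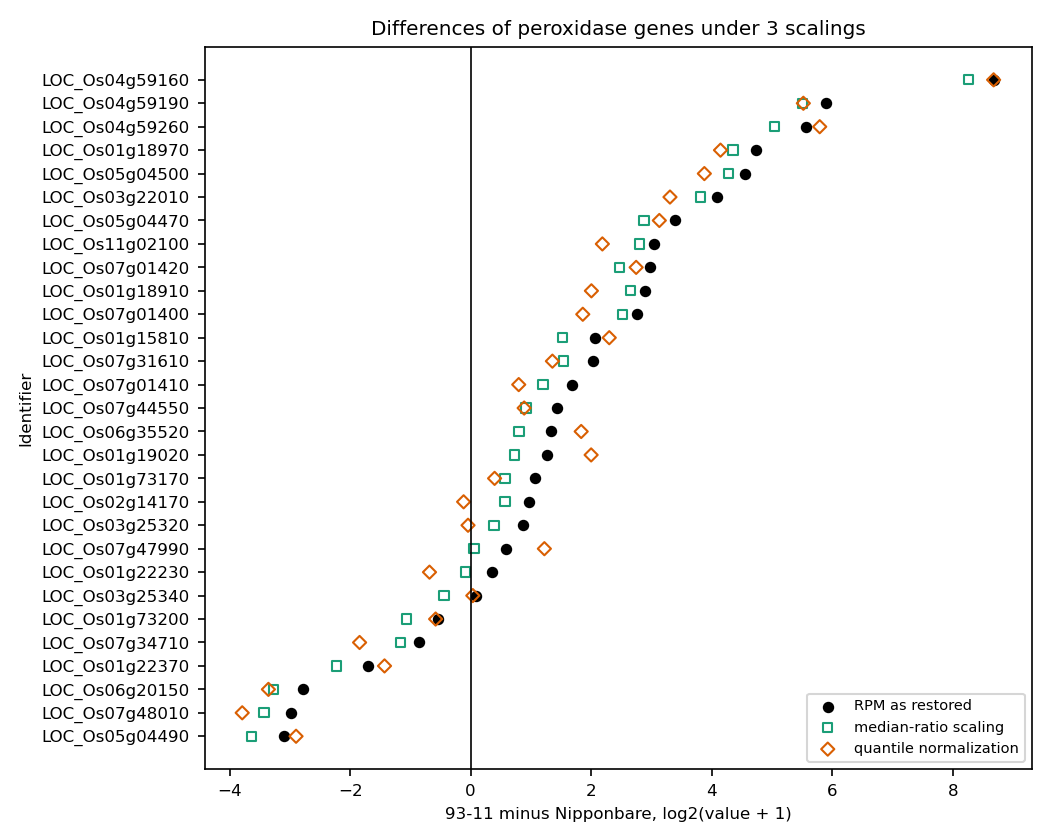
Log2 difference (93-11 minus Nipponbare, x axis) of the 29 tested members with RPM as restored, after median-ratio scaling and after quantile normalization. Members far from 0 keep their side under all 3 scalings, while LOC_Os01g22230, LOC_Os03g25340, LOC_Os03g25320 and LOC_Os02g14170 cross 0 under at least 1 of them.

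Genes of neighbouring steps were described through lists of identifiers that were recalled from published rice work and are not annotated in the tables. NADPH oxidases form the superoxide from which hydrogen peroxide, the substrate of peroxidases, arises. Of 9 such identifiers 2 were tested, and 1 was higher in each cultivar. LOC_Os01g25820 was at 330.4 and 335 RPM in 93-11 and 54.3 and 54.5 RPM in Nipponbare, while LOC_Os11g33120 was at 68.5 and 69.6 RPM in 93-11 and 278 and 277 RPM in Nipponbare. Ascorbate peroxidases and catalases remove hydrogen peroxide inside the cell. Both tested identifiers of 8 listed as ascorbate peroxidases and the single tested one of 3 listed as catalases were higher in 93-11, under all 3 scalings. On RPM 59.0% of all genes tested were called higher there. The tested LOC_Os04g14680 was low, at 1.95 and 2.19 RPM in 93-11 and 0 reads in Nipponbare. Listed ascorbate peroxidases summed to 37.6 and 41.0 RPM in 93-11 (2 genes) and 169 and 166 RPM in Nipponbare (6 genes). Listed catalases summed to 25.7 and 26.2 RPM in 93-11 (1 gene) and 239 and 237 RPM in Nipponbare (3 genes). These sums cover different genes and were not compared. Monolignol synthesis enzymes make the phenolic units that wall peroxidases couple. Of 19 such identifiers 8 were tested, of which 1 was higher in 93-11 and 5 in Nipponbare, with a median log2 difference of -1.22 against 1.44 for all genes. Under each other scaling 1 was called higher in 93-11 and 7 in Nipponbare. Most of the tested monolignol identifiers thus had the direction opposite to most tested peroxidases, and this difference between the lists was not tested. Listed monolignol identifiers summed to 1928 and 2106 RPM in 93-11 (13 genes) and 928 and 941 RPM in Nipponbare (11 genes). These sums, too, cover different genes and were not compared.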

How the data were processed

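The authors deposited 1 table per cultivar with its 2 libraries, named as RPM; HISAT2 2.0.4 and HTSeq 0.11.2 were used per the submitters' processing notes. The sources used here give no genome build, no annotation and no rule for which genes a table lists. In the deposited values 61.6% to 76.5% per library had lost the decimal point, and values below 1 RPM were intact. The library total came from the smallest value. With some power of 10 every value then was a whole number of reads (tolerance 1e-06 read, plus a share of 1e-12; 0 exceptions). The closest pair of candidates in the 2 libraries of a cultivar was taken, ties going to the lower pair. The other library set the power of 10 for 964 genes in 93-11 and 822 in Nipponbare. Genes whose closest pair differed by more than 0.4 in log10, both decimal points being lost, were left out: 3 in 93-11 and 1 in Nipponbare, none of them a member.

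The fit was run on log2(RPM + 1), a scale that understates the change of low genes, with limma 3.58.1 (R 4.3.3, variance trend). It took genes in both tables whose mean reached 1 RPM. Restoration and fit were checked on simulated data. Most changed genes were recovered, but some genes were restored 10 times too low in both libraries, and false calls exceeded the share that the threshold of 0.05 allows. RPM is not a count, and no count test was run. A fold is the ratio of mean RPM; against 0 reads in both libraries of a cultivar it is a lower bound against 3 reads per library. Floors cover counting error only. Members and lists were chosen with earlier results of these data known. Full statistics go to the 8 largest called differences in each direction.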

Additional observations from a re-analysis of the deposited data

How the results depend on the processing

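Under the 12 alternatives the number of members called higher in 93-11 lay between 16 (each library restored on its own) and 22 (no filter, and the replicate block), against 21. The number called higher in Nipponbare lay between 5 and 7, against 6. Of all 7269 genes tested, 4290 were called higher in 93-11 and 2757 in Nipponbare. With each library restored on its own the all-gene counts were 3727 and 2232 of 7269. With no filter they were 5278 and 2951 of 8576, and with the replicate block 4294 and 2776 of 7269. Leaving out 1 library at a time gave 21 members higher in 93-11 in each case, 5 to 6 higher in Nipponbare, and medians from 1.36 to 1.503, the lone library being assumed to vary like the other cultivar. The median log2 difference of the members, 1.43, became 0.92 after median-ratio scaling; the scaling lowers the differences of these 29 members by 0.23 to 0.54. Members whose sign turned were LOC_Os01g22230 (-0.091) and LOC_Os03g25340 (-0.44) after median-ratio scaling, LOC_Os01g22230 (-0.68), LOC_Os02g14170 (-0.12) and LOC_Os03g25320 (-0.044) after quantile normalization, and LOC_Os03g25340 (-1.44) with each library restored on its own; apart from the change of scale or of restoration itself, the cause was not tested. Taken as a ratio between the cultivars, 16 of 29 differences shifted by over 1.5 times after quantile normalization. With a pseudocount of 0.1 RPM 8 did, and after median-ratio scaling 0. The same direction and call were kept under every alternative that tested them by 18 of the 29 members. The labels do not say that replicate numbers pair the libraries, and the differences between replicates 1 and 2 of the cultivars had a correlation of 0.0194 across genes; with the replicate block 22 members were called higher in 93-11, LOC_Os01g22230 being added (limma adjusted p = 0.0157). At a gap of 100 in place of 300, 7 series in place of 8 had 2 or more tested members. With 2 libraries per cultivar the precision is limited by their number, and members at or under 3 reads cannot be compared.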

Other observations

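Genes that are no members but lie, by identifier, inside a peroxidase series or within 100 of either of its ends had the following values. Over the 13 series 42 such genes were tested. By limma 32 were higher in 93-11 and 8 in Nipponbare, where the shares of all genes tested were 59.0% and 37.9%. The median log2 difference of the 42 genes was 1.69, against 1.43 for the 29 peroxidase members and 1.44 for all genes tested. After median-ratio scaling the counts were 30 and 11, beside 4127 and 2960 of all 7269 genes tested. After quantile normalization they were 27 and 10, beside 3892 and 3035 of all genes tested. The order of the medians changed with the scaling: it was 1.299 for the neighbours, 0.92 for the members and 1.03 for all genes after median-ratio scaling, and 0.77, 1.36 and 0.59 after quantile normalization. Next to the LOC_Os04g59 series 5 genes were tested, and 4 were higher in 93-11, with log2 differences from 3.14 to 4.90. LOC_Os04g59130 was at 30.9 RPM in both 93-11 libraries and at 0.0465 and 0.0930 RPM in Nipponbare, and LOC_Os04g59330 at 286 and 309 RPM in 93-11 and 32.3 and 33.7 RPM in Nipponbare. LOC_Os04g59140, the number before the first peroxidase of the series, had 4.05 and 5.21 RPM in 93-11 and 11.4 and 10.6 RPM in Nipponbare, higher in Nipponbare (log2 difference -1.10, limma adjusted p = 0.000601). No test was made of whether peroxidase members and their neighbours differ.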
